A study of Homo sapiens with 8 samples.

Results

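The genes described here are MYC and 46 genes whose products work in the nucleolus or on ribosome assembly. They were chosen by name, from their known roles: RNA polymerase I subunits and factors, multifunctional nucleolar proteins, small nucleolar ribonucleoprotein (snoRNP) proteins, and assembly factors of the small and large ribosomal subunits. All 47 of 47 were in the table of 23368 gene symbols, and all 47 passed the filter on low values that left 13010 genes for testing. Their messenger RNA was measured in H2030-BrM, a brain-metastatic derivative of the human lung cancer line H2030, in 8 libraries that form 4 groups of 2 replicates. Every group carried EGFP-Rpl10a from the vector pLVX-EGFP-Rpl10a-IRES-hygro, so that antibodies to EGFP pull down tagged ribosomes with the messages bound to them (translating ribosome affinity purification, TRAP). Cells with an shRNA against luciferase were taken from a petri dish at 0 h (shControl_dish) or from a mouse organotypic brain slice at 48 h (shControl_slice). Cells with an L1CAM shRNA were taken in the same ways (shL1CAM_dish and shL1CAM_slice). Dish cells grew in RPMI 1640, and slices lay over DMEM with HBSS and a lower share of serum, so medium, serum, substrate and time changed together and cannot be told apart. The labels call the replicates biological without stating that the cultures were separate, and each p-value is therefore measured against the spread of these libraries, which may be technical. The libraries are bulk, and a lower value in every cell cannot be told apart from fewer cells that hold the transcript. They hold messages bound to tagged ribosomes, so fewer transcripts cannot be told apart from less binding to ribosomes.

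Ribosomes are built in the nucleolus, where RNA polymerase I copies the ribosomal DNA into a long precursor RNA. Box C/D and box H/ACA snoRNPs modify that precursor, and a large particle called the small subunit processome folds and cleaves it, while separate factors mature the large subunit. MYC is a transcription factor that binds DNA together with MAX, and genes for the polymerase, the nucleolar proteins and the assembly factors are among its best-known targets in growing cells.

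The motif that MYC and MAX are best known to bind is the E-box CACGTG, whose letters read the same on both strands. It was searched for in RefSeq promoters of GRCh38.p14, from 250 bases before each gene's start to 50 after it. Promoters were found for 40 of the 47 genes, and the 7 without one are MYC, NOP58, NOLC1, TCOF1, RRP12, BOP1 and RRP1B. CACGTG stood in 18 of the 40 (45%), beside 12.8% of the 10164 tested genes with a promoter. Of the 20 matches in these promoters, 18 began within 70 bases of the start. In the 90 bases from 70 before to 20 after the start, 11 of the 40 (27.5%) held the motif, beside 3.81% of all genes of the promoter table. That set is wider than the tested genes, and its share over the full 300 bases was 8.775%, below their 12.8%. The share of the tested genes was not counted for the 90 bases. With the 250 upstream bases alone the share was 6 of 40 (15%), beside 11.4% of the tested genes, so most of the matches lay at or just after the start. The share was 71.4% for the multifunctional nucleolar proteins (5 of 7), 50% for the small subunit group (7 of 14), 44.4% for the large subunit group (4 of 9) and 0 of 5 for RNA polymerase I and its factors. A match is a description of the letters in this window, not a site of binding.

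The 90-base windows of 6 genes are shown because they hold the motif and belong to genes that differ in what follows. NAT10, LYAR, GNL3 and PWP2 were lower on the slice with either shRNA, UTP20 was lower with the L1CAM shRNA, and FBL was called in neither. Each is given 5′ to 3′ on the strand of its gene, with CACGTG in capitals. The windows are NAT10 at chr11:34105559-34105648 (plus strand), LYAR at chr4:4290002-4290091 (minus strand), GNL3 at chr3:52685962-52686051 (plus strand), PWP2 at chr21:44107329-44107418 (plus strand), UTP20 at chr12:101280035-101280124 (plus strand) and FBL at chr19:39846360-39846449 (minus strand).
NAT10: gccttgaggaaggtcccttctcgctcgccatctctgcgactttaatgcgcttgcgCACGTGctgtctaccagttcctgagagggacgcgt
LYAR: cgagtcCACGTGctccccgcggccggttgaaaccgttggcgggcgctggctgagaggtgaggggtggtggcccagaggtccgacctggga
GNL3: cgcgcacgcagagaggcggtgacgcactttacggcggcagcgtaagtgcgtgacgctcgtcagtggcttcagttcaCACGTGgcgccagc
PWP2: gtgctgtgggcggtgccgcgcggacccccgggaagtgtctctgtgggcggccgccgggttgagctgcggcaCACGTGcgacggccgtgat
UTP20: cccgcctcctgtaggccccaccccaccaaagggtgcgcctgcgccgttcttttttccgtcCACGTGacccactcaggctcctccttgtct
FBL: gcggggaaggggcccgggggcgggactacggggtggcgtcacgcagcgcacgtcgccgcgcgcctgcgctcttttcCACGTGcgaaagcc
In NAT10, LYAR and UTP20 the motif begins before the start, and in GNL3, PWP2 and FBL just after it. LYAR and GNL3 each have another listed start, whose window lacks the motif.

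Windows of 3 genes without the motif anywhere in the 300 bases searched are shown for contrast, since these genes were also lower on the slice with either shRNA. They are NCL at chr2:231464465-231464554 (minus strand), DKC1 at chrX:154762794-154762883 (plus strand) and WDR75 at chr2:189441404-189441493 (plus strand), all in lower case because nothing in them matched.
NCL: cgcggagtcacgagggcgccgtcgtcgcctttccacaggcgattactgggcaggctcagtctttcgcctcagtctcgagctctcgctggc
DKC1: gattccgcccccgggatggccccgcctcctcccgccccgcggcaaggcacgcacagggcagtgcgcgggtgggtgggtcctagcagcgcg
WDR75: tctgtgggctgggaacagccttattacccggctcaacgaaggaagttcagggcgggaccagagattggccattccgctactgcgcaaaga
Split by the motif, 7 of the 18 genes with it and 11 of the 22 without it were lower on the slice with the control shRNA (limma, Benjamini-Hochberg adjusted p under 0.05), where 8.03% of all tested genes were. The median log2 fold changes were -0.62 and -0.49. With the L1CAM shRNA the counts were 6 of 18 and 13 of 22, beside 11.2% of all tested genes, with medians of -0.41 and -0.54. The 7 genes without a listed promoter had medians of -0.78 and -0.72, and 4 of them were lower in each comparison. By the medians the order of the motif classes was not the same in the 2 comparisons, by the share lower it was, and no difference between the classes was tested.

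Each library held between 13486212 and 16734651 reads, recovered from the deposited values, and 3 reads corresponded to a normalized count of 2.75 to 3.57. Normalized counts are read counts divided by a size factor of the library, and all values below are of that kind unless stated otherwise. The shRNA target L1CAM, a cell adhesion molecule, read 482 and 440 in the dish and 451 and 438 on the slice with the control shRNA. With its own shRNA it read 126 and 88.3 in the dish and 74.7 and 65.4 on the slice. The epithelial keratins KRT8 and KRT18 ran from 3460 to 6002, while EPCAM and CDH1 were low and KRT19 was nearly absent. Brain markers were scored over those whose dish mean was under 10. This kept 3 of 10 neuron, 5 of 6 astrocyte, 6 of 7 microglia and 6 of 7 endothelial markers. Markers already present in the dish were left out, whatever their values on the slice, so the sums of the kept markers do not describe them. The summed counts of the kept markers for neurons, astrocytes, microglia and endothelial cells reached at most 22.6 in any library. Of the 47 genes studied, 46 had a mean of at least 405.

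The second replicate of shL1CAM_slice stood apart. The SD of the log2 difference between its replicates over the 47 genes was 0.529, beside 0.107 in shControl_dish, 0.0907 in shControl_slice and 0.216 in shL1CAM_dish. This difference ran with transcript length. All 11 of the shortest genes (865 to 2029 nt by the longest listed transcript) were higher in the second replicate, with a median log2 difference of 0.55, whereas 9 of the 11 longest (5059 to 12749 nt) were lower, with a median of -0.43. The largest differences were in DDX21 (-1.36) and PPAN (1.10). Across the 47 genes of this group Spearman's rho between length and the difference was -0.705, and over the 12462 tested genes with a length it was -0.604. Over the same 47 genes it was -0.552 in shL1CAM_dish, where the differences were smaller, -0.217 in shControl_slice and 0.0761 in shControl_dish. Genes share the same pair of libraries, so no p is given. The main results that involve this group are given with and without that library.

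**Figure D1:**
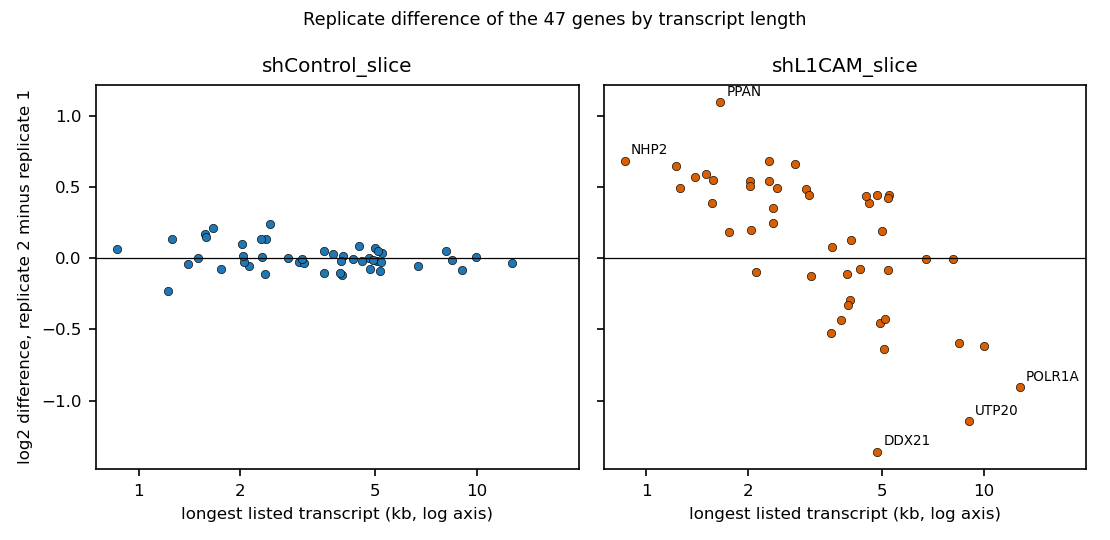
Log2 difference between replicate 2 and replicate 1 of each of the 47 genes (y axis) against its longest listed transcript in kb (log x axis), for the slice groups with the control shRNA (left) and the L1CAM shRNA (right), 1 point per gene. On the right the points fall from short to long transcripts, with scatter. The highest point is PPAN at 1.10 and the lowest DDX21 at -1.36, which are not the shortest and the longest. On the left the points lie near 0.

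Per kilobase of transcript, the nucleolar chaperone NPM1 was the most abundant in shControl_dish, at 10192 ± 18.3 normalized counts per kb (SD, n = 2). Next came NCL (nucleolin), at 6291 ± 42.3, and FBL (fibrillarin), the box C/D methyltransferase, at 3261 ± 53.6. These 3 levels were separated by far more than their spread. At the other end were DDX10, a helicase of small subunit assembly, at 116 ± 1.66, the processome scaffold UTP20 at 106 ± 17.6, and PPAN, a large subunit factor, at 12.2 ± 1.95. DDX10 and UTP20 differed by less than the spread of UTP20. PPAN stood at 17.9 to 58.3 normalized counts, and its readthrough transcript PPAN-P2RY11, which shares its sequence, was listed at 0 in every library. How reads that fit both were counted is not known, so the level and rank of PPAN are uncertain. NPM1 has many near-identical pseudogenes, and NOP14 lies opposite the antisense gene NOP14-AS1, which the unstranded kit cannot separate, so both values are uncertain.

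Together the 47 genes took 0.972% and 0.911% of the normalized signal in the shControl_dish libraries and 0.633% and 0.627% in shControl_slice. With the L1CAM shRNA the shares were 0.910% and 0.931% in the dish and 0.629% and 0.610% on the slice. Every slice library lay below every dish library, and within each culture the shRNA groups overlapped. The 76 tested genes of cytosolic ribosomal proteins, the parts that these factors assemble, ran the other way, at 4.70% to 5.29% in the 4 dish libraries and 6.17% to 9.21% on the slice. The highest of these, 9.21%, was the library that stood apart, and the other slice libraries reached 6.46%.

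**Figure D2:**
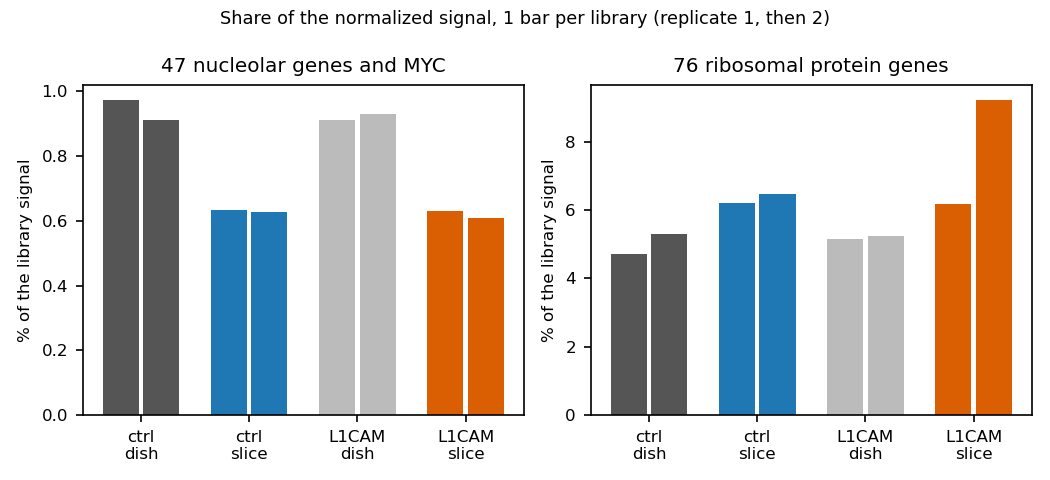
Share of each library's normalized signal (y axis, %) taken by the 47 genes, MYC included (left), and by 76 ribosomal protein genes (right), with 1 bar per library in the 4 groups. The 4 slice bars on the left sit between 0.610% and 0.633%, below the dish bars at 0.910% to 0.972%, and on the right the slice bars are the taller ones.

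On the slice with the control shRNA, ribosome-bound messages for nucleolar and assembly factors were lower than in the dish. Of the 47 genes, 22 were lower and 0 higher (limma on log2 of the normalized count plus 1, Benjamini-Hochberg adjusted p under 0.05), where 8.03% of all tested genes were lower and 6.8% higher. The median log2 fold change was -0.61, beside 0.013 over all tested genes. Both slice libraries lay below both dish libraries in 40 genes and above them in 2, beside 37.3% and 39.8% of all tested genes. At an unadjusted p under 0.05, 30 were lower, and edgeR and DESeq2 on the recovered reads called 26 and 28 lower, with 0 higher by any of them. Over all 13010 tested genes 2097 were lower at that p, and edgeR and DESeq2 called 8.72% and 9.5% lower. Without the second shL1CAM_slice library, which enters only through the shared estimate of the spread, 38 were lower and 0 higher, beside backgrounds of 23% and 23.9%, and without the first 38 were lower too. A fit of the 4 control libraries alone gave 39, beside 25.6% of all tested genes. Leaving out the first or the second shL1CAM_dish library gave 14 or 13, beside 4.81% or 4.78%. When any of the 4 control libraries was left out, 0 remained past the threshold, as did at most 0.53% of all tested genes, the median stayed between -0.67 and -0.50, and the lone library of its group was assumed to vary like the others. The proliferation marker MKI67 moved with these genes, from 7384 and 7040 in shControl_dish to 1718 and 1753 in shControl_slice, and its part in the result was not tested.

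MYC itself stood at 2327 and 2148 in shControl_dish and at 1620 and 1499 in shControl_slice. Both slice values were below both dish values. The log2 fold change was -0.52 ± 0.16 (SE) with an adjusted p of 0.0558 (limma, Benjamini-Hochberg), which missed the threshold. MYC passed it with edgeR (adjusted p = 0.0497), with DESeq2 (0.0352), with the length trend removed (0.0112), and when the spread was taken from the 4 control libraries alone (9.69e-05) or the libraries were weighted (2.06e-05). Without the first or the second shL1CAM_slice library the adjusted p was 0.000397 or 0.000391. It missed the threshold in the other settings, from 0.0533 with a mean of at least 50 to 0.0719 with no filter or with a replicate block. Without any of the 4 control libraries the adjusted p was 0.184 to 0.343, and without either shL1CAM_dish library it was 0.0993.

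Of the 5 genes for RNA polymerase I and its factors, 0 were lower or higher with the control shRNA. Over all tested genes 8.03% were lower and 6.8% higher, so 0 of 5 is near these shares and is not read as a result. At an unadjusted p under 0.05 the number was also 0, as it was for edgeR and DESeq2. Their median log2 fold change was -0.06. POLR1A, the largest subunit and part of the active centre, stood at 2306 and 1998 in shControl_dish and at 1510 and 1475 in shControl_slice (log2 fold change -0.52, limma adjusted p = 0.196). POLR1B, the other large catalytic subunit, stood at 1364 and 1245 in the dish and at 979 and 967 on the slice (-0.42, limma adjusted p = 0.195). In both the slice values lay below the dish values, but by too little for the spread that the groups share. Leaving out the second shL1CAM_slice library left both log2 fold changes as they were and changed only that shared spread. UBTF, which opens ribosomal DNA to the polymerase, RRN3, its initiation factor, and the subunit POLR1C had log2 fold changes of -0.06, -0.01 and 0.03. Their slice and dish values overlapped.

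The multifunctional nucleolar proteins, which act at several steps, had the lowest median among the 7 role groups, at -0.88. With the control shRNA 6 of 7 were lower, beside 8.03% of all tested genes. NCL, which binds precursor rRNA and organizes nucleolar chromatin, stood at 25497 and 25256 in shControl_dish and at 12922 and 13027 in shControl_slice. It was 1.96-fold lower (log2 fold change -0.97 ± 0.14 SE, limma adjusted p = 0.00502), and the replicates of a group differed far less than the groups. LYAR, a nucleolar zinc finger protein that acts in rRNA processing, stood at 898 and 831 in the dish and at 410 and 461 on the slice (-0.99 ± 0.18, limma adjusted p = 0.0117). The other called genes were NAT10, which acetylates rRNA (-0.93), NPM1 (-0.63), MYBBP1A (-0.65) and the GTPase nucleostemin, GNL3 (-0.46). DDX21, a helicase of RNA polymerase I and II transcription, stood at 9178 and 8633 in shControl_dish and at 4964 and 4707 in shControl_slice, with no overlap. The difference of -0.88 ± 0.35 (SE) on the log2 scale did not pass (limma adjusted p = 0.121).

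In the box C/D snoRNP, which guides methylation of rRNA, 2 of 3 genes were lower with the control shRNA, beside 8.03% of all tested genes. NOP58, a core protein, stood at 4271 and 3797 in shControl_dish and at 2133 and 2095 in shControl_slice (log2 fold change -0.93 ± 0.14 SE, limma adjusted p = 0.00597). Its partner NOP56 stood at 2384 and 2271 and at 1458 and 1429 (-0.69 ± 0.17, limma adjusted p = 0.0326). In both genes the slice values were well below the dish values. The methyltransferase FBL stood at 4619 and 4513 in the dish and at 3749 and 3648 on the slice (-0.30, limma adjusted p = 0.292), a smaller difference without overlap. The differences between the core proteins of this particle were not tested.

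Among the box H/ACA snoRNP proteins and the snoRNP scaffolds 3 of 5 were lower, beside 8.03% of all tested genes. TCOF1 (treacle), a scaffold of ribosomal DNA transcription that is mutated in Treacher Collins syndrome, stood at 3558 and 3237 in shControl_dish and at 1592 and 1635 in shControl_slice. It was 2.10-fold lower (log2 fold change -1.07 ± 0.17 SE, limma adjusted p = 0.0065). DKC1 (dyskerin), the pseudouridine synthase of the particle, stood at 5235 and 4477 in the dish and at 3220 and 3142 on the slice (-0.61 ± 0.14, limma adjusted p = 0.0251). The chaperone NOLC1 was the third called gene (-0.62). The core proteins GAR1 (-0.62, limma adjusted p = 0.0835) and NHP2 (-0.06) did not pass, and the NHP2 values of dish and slice nearly touched, at 2422 and 2508 against 2312 and 2412.

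Of 15 genes for the small subunit processome and later 40S assembly, 8 were lower and 0 higher, with a median of -0.68. Over all tested genes 8.03% were lower and 6.8% higher. WDR75, of the subcomplex that first binds the precursor, stood at 2737 and 2730 in shControl_dish and at 1715 and 1707 in shControl_slice (log2 fold change -0.68 ± 0.13 SE, limma adjusted p = 0.0127). The helicase DDX10 stood at 771 and 787 and at 451 and 433 (-0.82 ± 0.15, limma adjusted p = 0.0107). The replicates of these genes nearly coincided. WDR3 (-0.91), RRP12 (-0.81), PWP2 (-0.76), HEATR1 (-0.73), UTP15 (-0.69) and the late 40S factor TSR1 (-0.45) were also lower. UTP20 had a larger log2 fold change (-1.02) that did not pass (limma adjusted p = 0.0598). IMP3, an RNA-binding partner of the U3 snoRNA, was the exception in sign, at 1207 and 1117 in the dish and 1255 and 1347 on the slice (0.16).

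Of 11 genes for large subunit assembly 3 were lower with the control shRNA, beside 8.03% of all tested genes, with a median of -0.48. LAS1L, a nuclease that cuts the spacer between the large subunit rRNAs, stood at 917 and 819 in shControl_dish and at 414 and 407 in shControl_slice. It was 2.11-fold lower (log2 fold change -1.08 ± 0.18 SE, limma adjusted p = 0.00857), the most negative value among the 47 genes in this comparison. EBNA1BP2, an early assembly factor, stood at 4646 and 3789 and at 2187 and 2184 (-0.94 ± 0.22, limma adjusted p = 0.0251). The third was the rRNA methyltransferase NOP2 (-0.61). Members of the PES1, BOP1 and WDR12 complex had log2 fold changes that did not pass, with limma adjusted p-values of 0.0505 for BOP1 (-0.78) and 0.052 for WDR12 (-0.44). NOP16 (-0.01) overlapped between dish and slice, and PPAN, with the lowest counts, was the only gene of this group with a positive value (0.45).

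**Figure D3:**
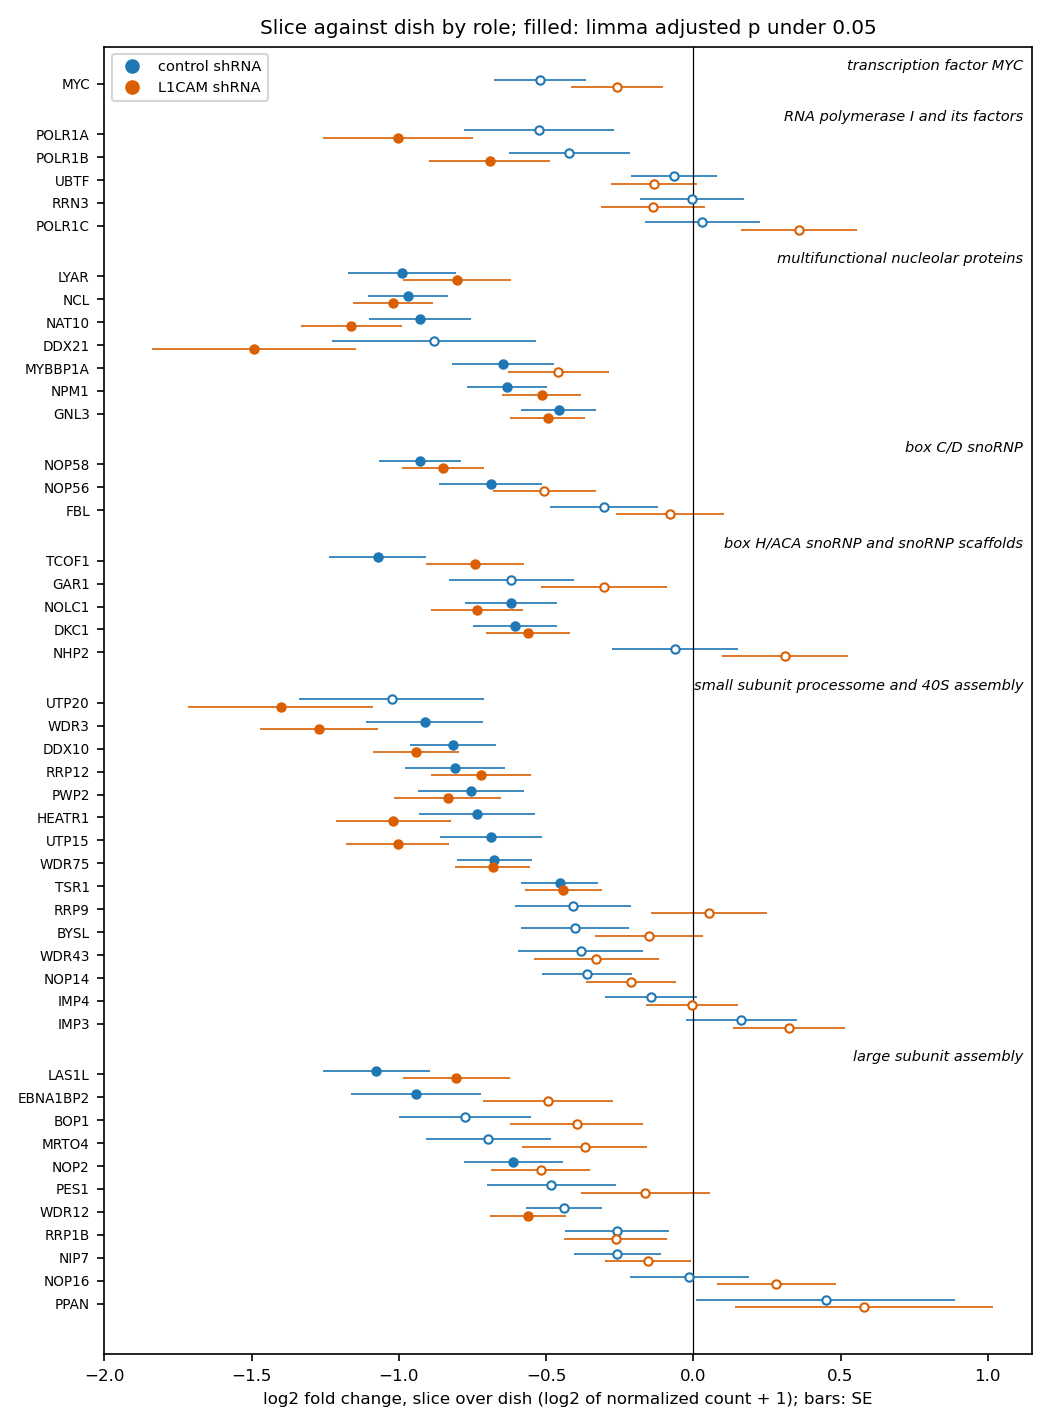
Log2 fold change of slice over dish (x axis) for each of the 47 genes, grouped by role, with the control shRNA in blue and the L1CAM shRNA in orange. Bars are SE, and filled points passed a limma adjusted p of 0.05. Nearly all points lie left of 0, the filled ones without exception, and UBTF, RRN3 and POLR1C lie near 0 with the control shRNA.

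The slice with the L1CAM shRNA was compared with its own dish group, which shares no library with the control comparison although both draw on 1 estimate of the spread. Of the 47 genes, 23 were lower and 0 higher (limma, adjusted p under 0.05), where 11.2% of all tested genes were lower and 10.1% higher. The median was -0.50, beside -0.0019 over all tested genes. Both slice libraries lay below both dish libraries in 30 genes and above in 1, beside 28.7% and 28% of all tested genes. At an unadjusted p under 0.05, 26 were lower, and edgeR and DESeq2 called 23 and 24. Over all 13010 tested genes 2513 were lower at that p, and edgeR and DESeq2 called 11.3% and 12.2% lower. Without the second shL1CAM_slice library 34 were lower and 0 higher, beside backgrounds of 19.2% and 19.5%, with a median of -0.57. Without the first, 28 were lower and 6 higher, beside backgrounds of 30.1% and 27.6%. Without the first or the second shL1CAM_dish library the count was 1 or 5, beside 1.45% or 2.81% of all tested genes, and without either shControl_slice library it was 15, beside 6.37%. With library weights it was 11, beside 4.65%, and when the fit used only the 4 libraries compared it was 3, beside 2.44%.

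The genes lower in both comparisons numbered 18. Another 4 were called with the control shRNA alone (MYBBP1A, NOP56, EBNA1BP2 and NOP2), 5 with the L1CAM shRNA alone (POLR1A, POLR1B, DDX21, UTP20 and WDR12), and 20 in neither. Over all tested genes 8.03% were lower with the control shRNA and 11.2% with the L1CAM shRNA. How many of them were lower in both was not counted. Both calls draw on 1 spread per gene, so the 18 genes are not read as a repeat of the result. This split does not show that the responses differ. The difference itself is the interaction, and by limma it was past the threshold for 0 of the 47 genes and 0% of all tested genes.

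MYC stood at 1855 and 1907 in shL1CAM_dish and at 1391 and 1778 in shL1CAM_slice. Both slice values were below both dish values, and the replicates on the slice differed more than those in the dish. The log2 fold change was -0.26 ± 0.16 (SE) with a limma adjusted p of 0.259. Without the second shL1CAM_slice library it was -0.43 with a limma adjusted p of 0.00691, and without the first it was -0.081 with a limma adjusted p of 0.543. With the length trend removed it was -0.36 (0.0431), and all other settings missed the threshold.

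The multifunctional nucleolar proteins were again lower in 6 of 7 genes, beside 11.2% of all tested genes. Their median was -0.80, and -0.81 without the second slice library. NCL stood at 28448 and 25446 in shL1CAM_dish and at 12696 and 13838 in shL1CAM_slice, a 2.03-fold decrease (log2 fold change -1.02 ± 0.14 SE, limma adjusted p = 0.0029). Its call held in every alternative run, with adjusted p-values up to 0.0492. NAT10 stood at 1347 and 1067 in the dish and at 593 and 483 on the slice (-1.16 ± 0.17, limma adjusted p = 0.00396). DDX21 stood at 8398 and 7889 in the dish and at 4635 and 1807 on the slice (-1.49 ± 0.35, limma adjusted p = 0.019). Its second slice library was far below the first, which itself was close to the shControl_slice values, and without the second the value was -0.81. NAT10 was at -1.01 and NCL at -1.08 without it.

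Of the RNA polymerase I genes 2 of 5 were lower with the L1CAM shRNA, beside 11.2% of all tested genes. POLR1A stood at 2210 and 2165 in shL1CAM_dish and at 1493 and 796 in shL1CAM_slice (log2 fold change -1.004 ± 0.25 SE, limma adjusted p = 0.0254). POLR1B stood at 1085 and 1180 and at 874 and 560 (-0.69, limma adjusted p = 0.0425). In both the second slice library was the lowest of all 8. Without it the log2 fold changes were -0.55 for POLR1A (limma adjusted p = 0.00209) and -0.37 for POLR1B (0.0211), close to those with the control shRNA. Each call was lost in 6 of the 8 fits that left out 1 library. POLR1C stood at 468 and 483 in the dish and at 514 and 723 on the slice (0.36, not past the threshold).

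For the snoRNP proteins 1 of 3 box C/D genes and 3 of 5 H/ACA and scaffold genes were lower with the L1CAM shRNA. Over all tested genes 11.2% were lower. The medians of these groups were -0.51 and -0.56, and -0.75 and -0.57 without the second slice library. NOP58 stood at 3994 and 3853 in shL1CAM_dish and at 2034 and 2331 in shL1CAM_slice (log2 fold change -0.85, limma adjusted p = 0.00552). NOP56 stood at 2129 and 2335 and at 1326 and 1857 (-0.51, limma adjusted p = 0.0684), and without the second slice library its value was -0.75 (0.00018). Neither gene overlapped between dish and slice. TCOF1 stood at 3424 and 3353 in the dish and at 1738 and 2358 on the slice (-0.74, limma adjusted p = 0.0168). NOLC1 stood at 5934 and 6065 and at 4036 and 3218 (-0.73, limma adjusted p = 0.0143). Without the second slice library the values were -0.95 for NOP58, -0.96 for TCOF1 and -0.57 for NOLC1. NHP2 had a positive value (0.31), with 2761 and 3291 in the dish and 2950 and 4743 on the slice, and the sign turned without the second slice library (-0.031). FBL had a log2 fold change of -0.08, with slice values of 3853 and 5726 on either side of its dish values of 4918 and 5013. Without the second slice library FBL was at -0.37 (limma adjusted p = 0.0114).

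Of the small subunit genes 9 of 15 were lower with the L1CAM shRNA, and of the large subunit genes 2 of 11. Over all tested genes 11.2% were lower. The medians of these groups were -0.68 and -0.37, and -0.64 and -0.56 without the second slice library. WDR3, a WD-repeat subunit of the processome, stood at 2002 and 1786 in shL1CAM_dish and at 970 and 632 in shL1CAM_slice (log2 fold change -1.27 ± 0.20 SE, limma adjusted p = 0.00481). DDX10 stood at 964 and 825 and at 464 and 463 (-0.94, limma adjusted p = 0.00455). Both were clearly separated between dish and slice. LAS1L stood at 791 and 670 and at 360 and 482 (-0.81, limma adjusted p = 0.0173). WDR12 stood at 1754 and 1668 and at 1162 and 1156 (-0.56, limma adjusted p = 0.0179). Their slice libraries likewise lay below their dish libraries. The WDR12 call was lost with the compared libraries only, with library weights and with the length trend removed. Over the settings other than leaving out a library, its value ran from -0.56 to -0.27. UTP20, with a transcript of 9025 nt, stood at 940 and 981 in the dish and at 540 and 244 on the slice (-1.40, limma adjusted p = 0.0169). Without the second slice library the values were -0.83 for UTP20, -0.96 for WDR3, -1.02 for LAS1L, -0.94 for DDX10 and -0.56 for WDR12, all past the threshold.

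**Figure D4:**
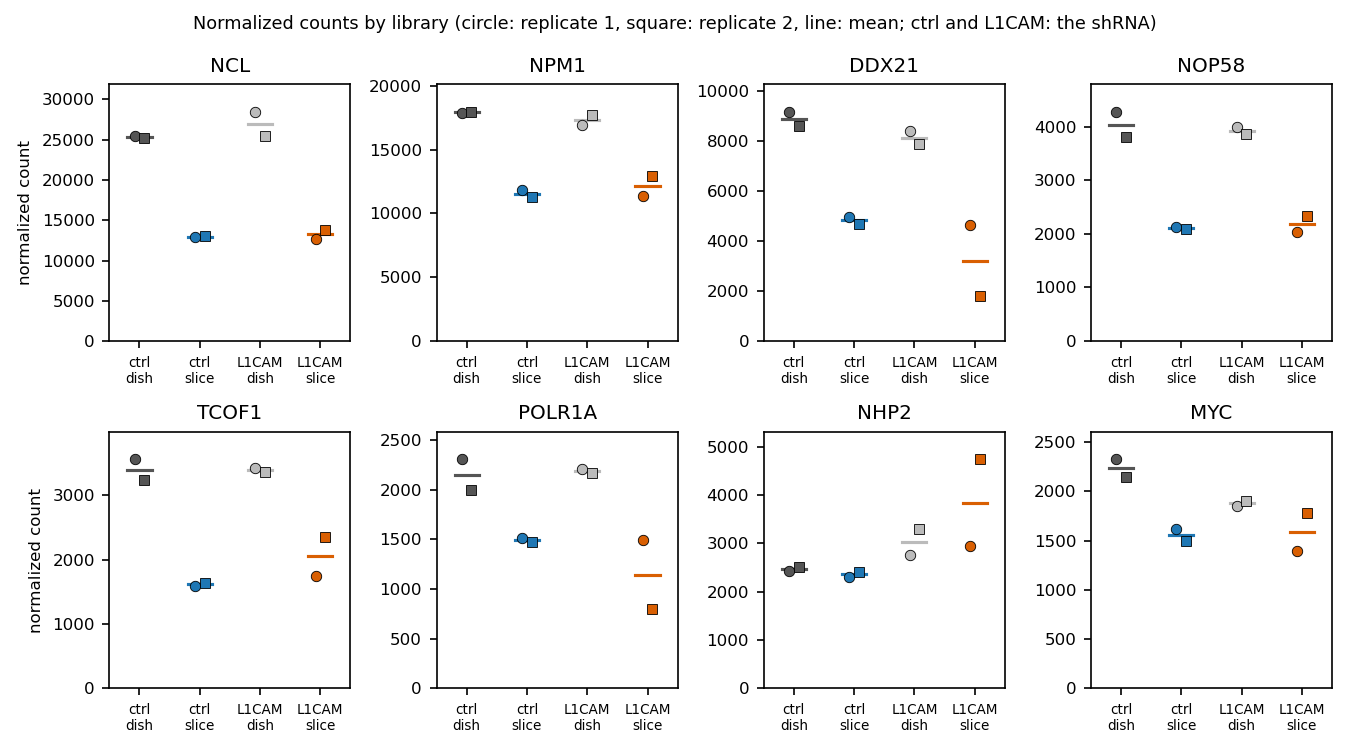
Normalized counts (y axis, from 0) of 8 of the 47 genes in the 8 libraries, with circles for replicate 1, squares for replicate 2 and a line at each group mean. NCL, NPM1, NOP58 and TCOF1 are lower in every slice library than in every dish library, whereas DDX21, POLR1A and NHP2 show the second shL1CAM_slice library away from the first.

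Other genes of the pathway were counted in lists that hold none of the 47. These lists too were chosen with earlier results of these data known, so the counts describe them and are not outside support. The first comparison was slice against dish with the control shRNA. In that comparison 8.03% of all tested genes were lower and 6.8% higher. Of 40 further small subunit factors, 12 were lower and 0 higher, with a median of -0.44. They include UTP6 (-0.82), the GTPase BMS1 (-0.66) and CIRH1A (-0.63). Of 48 further large subunit factors, 15 were lower and 0 higher, with a median of -0.37, among them the GTPase GTPBP4 (-0.85), RPF2 (-0.94), which brings in the 5S particle, and KIAA0020 (-0.86). Of 22 genes for snoRNP assembly and the RNA exosome, which trims precursor rRNA, 6 were lower and 0 higher, with the exosome subunits EXOSC9 (-1.19) and EXOSC8 (-1.08) and the helicase RUVBL1 (-0.95) in front. In the L1CAM shRNA comparison these 3 lists had 9, 13 and 7 lower genes and 0, 1 and 0 higher ones, beside 11.2% lower and 10.1% higher over all tested genes. The higher one was GLTSCR2 (0.91). Without the second shL1CAM_slice library the lower counts were 26, 34 and 15 with the control shRNA, beside 23%, and 23, 28 and 10 with the L1CAM shRNA, beside 19.2%.

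The remaining polymerase lists had called genes in both directions. Over all tested genes 8.03% were lower and 6.8% higher with the control shRNA, and 11.2% and 10.1% with the L1CAM shRNA. Several of the counts below lie near these shares and are not read as a result about the lists. Of 10 other genes for RNA polymerase I, TTF1 and the promoter factor SL1, 1 was lower and 1 higher with the control shRNA. POLR1E, a subunit specific to this enzyme, stood at 501 and 460 in shControl_dish and at 289 and 274 in shControl_slice (log2 fold change -0.77, limma adjusted p = 0.014). POLR1D, shared with RNA polymerase III, stood at 1534 and 1497 and at 2491 and 2599 (0.75, limma adjusted p = 0.0219). The slice values of POLR1E were thus all lower and those of POLR1D all higher than in the dish. Both had the same direction with the L1CAM shRNA, at -0.57 and 1.09, and the terminator TTF1 was also lower (-0.57). Of 21 genes of RNA polymerase III, which makes 5S rRNA and transfer RNA, 4 were lower and 1 higher with the control shRNA, with POLR3G (-0.96), GTF3C1 (-0.62) and POLR3B (-0.74) the first by p. The L1CAM shRNA comparison had 5 lower and 2 higher. The median of the polymerase III list with the L1CAM shRNA was 0.08, and -0.004 without the second shL1CAM_slice library. For the RNA polymerase I list these medians were -0.30 and -0.23. In the fit of all 8 libraries, the higher genes of the polymerase III list were POLR3E in both comparisons (0.49 and 0.53) and, with the L1CAM shRNA, the polymerase III repressor MAF1 (0.66).

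Partners and regulators of MYC included several genes higher on the slice. Of 17 tested, 5 were higher and 1 lower with the control shRNA, and 6 were higher and 2 lower with the L1CAM shRNA. Over all tested genes 6.8% were higher and 8.03% lower in the former and 10.1% and 11.2% in the latter. If the second shL1CAM_slice library was left out, 8 were higher and 6 lower with the control shRNA, beside 23.9% and 23%, and 8 and 3 with the L1CAM shRNA, beside 19.5% and 19.2%. MXD4, which pairs with MAX and represses transcription at E-boxes, stood at 139 and 179 in shControl_dish and at 464 and 523 in shControl_slice. The log2 fold change was 1.64 ± 0.20 (SE, limma adjusted p = 0.00325), and the call was lost without the first shControl_dish library (adjusted p = 0.0643) or the second shControl_slice library (0.0626). MXD4 in the L1CAM shRNA groups stood at 264 and 250 in the dish and at 632 and 831 on the slice (1.49, limma adjusted p = 0.0029). Every slice library was above every dish library. MXI1, of the same repressor family, was higher by 0.81 and 0.79 in the 2 comparisons. MAX, the shared partner, was higher by 0.59 and 0.62. MXD1 (0.65 and 0.73) and ZBTB17 (0.71 and 0.94) were the other genes higher in both, and KIAA1524, which stabilizes MYC protein, was lower with the control shRNA (-0.75).

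Over all tested genes 8.03% were lower and 6.8% higher with the control shRNA, and 11.2% and 10.1% with the L1CAM shRNA. Known MYC targets outside ribosome assembly were lower in 11 of 27 genes with the control shRNA and higher in 0, with a median of -0.52. They include the mitochondrial chaperone HSPD1 (-1.07), the folate enzyme MTHFD1 (-0.89) and CTPS, which makes cytidine triphosphate (-0.93). In the other comparison 11 were lower and 1 higher, the higher one being SRM (0.82). The median with the L1CAM shRNA was -0.37, and -0.50 without the second shL1CAM_slice library. Of these targets 57.7% held CACGTG in the promoter, beside 6.45% of the ribosomal protein genes. Of the 76 ribosomal protein genes 0 were lower and 2 higher with the control shRNA, RPL22 (0.54) and RPL12 (0.79), and both calls were lost with edgeR, with TMM or upper-quartile scaling and with no filter. DESeq2 called 7 higher, and without the second shL1CAM_slice library limma called 44 higher and 1 lower, beside 23.9% and 23% of all tested genes. Over all tested genes DESeq2 called 8.54% higher. The median of the ribosomal protein list was 0.28, with 68 of 76 genes positive. In the L1CAM shRNA comparison 14 were higher, beside 10.1% of all tested genes, with a median of 0.50. With edgeR and DESeq2 22 and 34 were higher, beside 11% and 12.3%. Without the second slice library the median was 0.17.

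The knockdown itself was compared within each culture. On the slice 0 of the 47 genes were lower or higher with the L1CAM shRNA (limma, adjusted p under 0.05), where 0.492% of all tested genes were lower and 0.154% higher. The median log2 fold change was 0.02. The count was also 0 with edgeR and with DESeq2. At an unadjusted p under 0.05 it was 1 lower and 1 higher, where 1281 and 1103 of the 13010 tested genes were. NHP2, the box H/ACA protein, stood at 2312 and 2412 in shControl_slice and at 2950 and 4743 in shL1CAM_slice (0.66 ± 0.21 SE, limma adjusted p = 0.193). POLR1B was at -0.47 (limma adjusted p = 0.269) and DDX21 at -0.74 ± 0.35 (limma adjusted p = 0.285). Without the second shL1CAM_slice library these 3 values were 0.32, -0.15 and -0.06, and 0 of the 47 genes were lower or higher, beside backgrounds of 3.16% and 1.51%. Without the first library of that group, which leaves only the one that stood apart, 11 genes were lower and 16 higher, beside 27.8% and 25.2% of all tested genes. The MYC value was 0.01 ± 0.16 (limma adjusted p = 0.965), and its sign turned without the second library of either slice group and with the length trend removed.

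In the dish 0 of the 47 genes were lower or higher with the L1CAM shRNA (limma), where 0.215% of all tested genes were lower and 0.0922% higher. The count was 0 at an unadjusted p under 0.05 and with edgeR and DESeq2 too. At that unadjusted p 673 of the 13010 tested genes were lower and 544 higher. The median was -0.10. WDR43, a processome protein, stood at 3743 and 2974 in shControl_dish and at 2184 and 2785 in shL1CAM_dish (-0.44, limma adjusted p = 0.581). BOP1 stood at 604 and 523 and at 390 and 430 (-0.46, limma adjusted p = 0.588). For both the L1CAM shRNA values lay below the control values. They were the 2 genes that passed when the second shL1CAM_slice library was left out of the shared spread (limma adjusted p = 0.0414 for WDR43 and 0.0266 for BOP1), when 0 were higher and the backgrounds were 6.56% lower and 4.49% higher. For MYC the log2 difference was -0.25 (limma adjusted p = 0.71), with both L1CAM shRNA libraries below both control libraries.

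**Figure D5:**
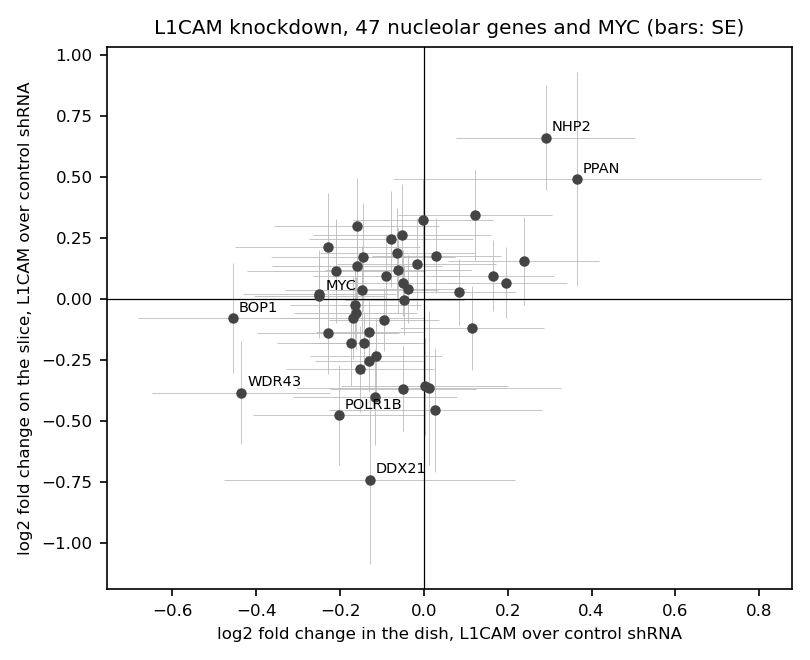
Log2 fold change of L1CAM over control shRNA on the slice (y axis) against the same in the dish (x axis), 1 point per gene with SE bars, for the 47 genes. None passed the threshold in either culture, and the genes farthest from 0 on the slice are DDX21 at -0.74 and NHP2 at 0.66.

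The interaction, which asks whether the slice response differed between the shRNAs, was past the threshold for 0 of the 47 genes. The count was 0 at an unadjusted p under 0.05 and with edgeR and DESeq2 as well. At that unadjusted p 85 of the 13010 tested genes were lower and 77 higher. The smallest p-values belonged to RRP9 (0.46), EBNA1BP2 (0.45) and TCOF1 (0.33), each with a limma adjusted p of 0.97, and MYC had a value of 0.26 with the same adjusted p. The median was 0.09. Without the first shL1CAM_slice library 7 genes were lower and 15 higher, beside 18% and 13.8% of all tested genes, and without the second 0 and 0, beside 0%.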

How the data were processed

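The deposited table holds 1 normalized signal per gene symbol and library, the authors' values. Per the submitters' processing notes, FastQC 0.11.3, HTSeq 0.5.4 and DESeq2 (no version) were used with hg19/GRCh37. Sources used here do not give the aligner or the annotation. Per the labels' protocols, a TruSeq RNA v2 kit made the libraries from RNA of high integrity. Every value was a whole multiple of 1 step per library (tolerance 1e-06, 100% of values), so reads were recovered for edgeR 4.0.16 and DESeq2 1.42.0, used as alternatives. The limit of 3 reads reflects counting error alone, because the reads carry no molecular identifiers.

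Genes with a mean of at least 10 were tested on log2(normalized count + 1), a scale that understates changes of low genes, with limma 3.58.1 in R 4.3.3. A single fit held 4 group means (eBayes with intensity trend), two-sided, with Benjamini-Hochberg adjustment over 13010 genes in each contrast and a threshold of 0.05. All groups shared 1 spread per gene. The fit was also run on simulated counts whose libraries all had the same spread. That run does not cover the wider spread of shL1CAM_slice. Lengths are of the longest GENCODE 29 transcript, and promoters are from RefSeq. The table's build differs from that of the promoters, so genes were joined by symbol only.

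The members and lists were chosen with earlier results of these data known, so counts describe them and no list was tested. Named were MYC, up to 2 genes per role with the smallest p in each slice comparison, 3 per knockdown comparison, the 3 highest and lowest levels per kb, and 3 per other list. Other named genes, printed windows included, were chosen after their values were seen. A result on the cell type markers is not reported here.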

Additional observations from a re-analysis of the deposited data

How the results depend on the processing

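The alternatives were other pseudocounts (10 and 0.25), no filter or a mean of at least 50, TMM or upper-quartile scaling, a replicate block, the compared libraries only, robust eBayes, library weights, the length trend removed, edgeR, DESeq2, and each library left out. With the control shRNA, 22 genes were lower on the slice, which became 39 with the compared libraries only and 39 with library weights, and 0 to 38 with a library left out, when the median ran from -0.67 to -0.50. Over all tested genes 25.6% were lower with the compared libraries only and 26.4% with library weights. With the L1CAM shRNA 23 became 3 and 11 under the same settings, beside 2.44% and 4.65%. Leaving out a library gave 1 to 34 lower and 0 to 6 higher. For the knockdown on the slice, leaving out a library gave 0 to 11 lower, 0 to 16 higher and a median of -0.065 to 0.15. In the dish it gave 0 to 2 lower, and library weights gave 1. For the interaction it gave 0 to 7 lower and 0 to 15 higher. The MYC value for the knockdown on the slice (0.01) turned to -0.12 with the length trend removed, to -0.043 without the second shControl_slice library and to -0.16 without the second shL1CAM_slice library. The cause of these moves was not tested, apart from the fewer samples in each fit.

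Nothing in the labels pairs the replicates, and deviations of same-numbered libraries correlated at -0.38 to 0.19. With a replicate block 21 and 22 genes were lower on the slice with the control and the L1CAM shRNA, beside 7.45% and 11.3% of all tested genes. With 2 libraries a group, each arm of a fit without 1 library rests on a spread borrowed from the other groups. Among single named genes, settings other than leaving out a library kept direction and call in 745 comparisons, lost the call in 22, gained it in 21 and turned the sign in 1. Leaving out a library kept both in 296, lost the call in 166, gained it in 24 and turned the sign in 2.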
